A study of Mus musculus with 12 samples.

Results

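Collagens and the other genes of the extracellular matrix were followed in the pituitaries of mice with or without Crhr1, the receptor for corticotropin-releasing hormone. The genes were taken by name from the array's probe table: collagen chains, laminin chains, matrix metalloproteinases (Mmp), tissue inhibitors of metalloproteinases (Timp) and the matrix proteins Mgp, Dcn, Lum, Fn1, Sparc, Bgn, Fbln1, Eln and Postn. The array carried 161 probes for 84 such genes. A gene was kept when its detection p-value, which sets a probe's signal against negative control beads, was under 0.01 on at least 2 arrays. 35 genes passed this filter, of 11766 features tested in all, and each is described by its probe with the highest mean. Of the other 49, 39 were detected on no array and 10 on 1 array. The detection filter removes genes that are dim in every group, so the 35 genes are not all matrix genes of the tissue.

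The 12 arrays hold 6 groups, with pooled pituitary RNA of each hybridised to 2 arrays. There were 3 Crhr1-ko groups (control, 1 h and 3 h) and 3 Crhr1-wt groups (control, 1 h and 3 h). All mice, controls included, received metyrapone, which blocks corticosterone synthesis, at 150 mg/kg and, 12 h later, at 100 mg/kg. Restraint of 30 min followed in the stressed groups, whose pituitaries were taken 1 h or 3 h from its start, and control pituitaries, per the labels, were taken within the same 1 to 3 h span. Blood was drawn before the stress, so the control level is that of injected and, per the protocol text, bled animals. Nothing in the labels used here tells the strain, age or sex of the mice, how many made up a pool, or in which tissues the receptor was deleted. Since the titles name the 2 arrays of a group as technical replicates, every SE and adjusted p from the arrays reflects array-to-array spread within 1 pool, with no measure of the spread between mice. The wording of the design leaves room for 2 pools per group. The titles set each array's group here, although the source field gives the Crhr1-ko control and 3 h arrays a 1 h time of death.

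The extracellular matrix of the pituitary lies mainly in the basement membranes around cords of hormone cells and around the fenestrated capillaries, and in thin connective tissue strands. Type IV collagen and laminin form the basement membrane sheets, fibrillar collagens form the fibres between them, and small leucine-rich proteoglycans such as decorin bind and space these fibres. Matrix metalloproteinases cut matrix proteins, and the Timp proteins bind and block them, so the balance of both sets how fast matrix is turned over.

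Between 9212 and 13506 probes were detected on 11 arrays, and 6119 on replicate 2 of the Crhr1-ko 3 h pool, where 14 of the 35 matrix genes were detected against 20 to 30 on the other arrays. The correlation between the 2 arrays of that pool, across features, was 0.926, against 0.967 to 0.981 in the other groups, and for the main results that use this pool the value without that array is given as well, an alternative chosen after the data were seen. All arrays of replicate 1 lay on 1 slide and all of replicate 2 on the other. Of 3 Crhr1 probes, 1 was detected on 0 of 6 Crhr1-ko arrays and 4 of 6 Crhr1-wt arrays, and the other 2 were at or near background in both genotypes. Hormone genes of the pituitary (Gh, Prl, Pomc, Tshb, Lhb, Fshb, Cga) were detected on all 12 arrays. The summed intensity of 11 stress-responsive genes such as Fos was 17264 to 21102 in Crhr1-ko 1 h arrays, against 4019 to 4585 in Crhr1-ko controls, and 15547 to 15615 in Crhr1-wt 1 h arrays, against 7546 to 9519 in Crhr1-wt controls.

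The matrix genes measured came from every role group. They were 5 of 11 fibrillar collagen genes, 6 of 18 fibril-associated, beaded or transmembrane collagens, 6 of 11 basement membrane and network collagens, 3 of 10 laminins, all 3 small leucine-rich proteoglycans, 4 of 6 glycoproteins, 5 of 21 metalloproteinases and 3 of 4 Timp genes. 12 of the 35 were detected on all 12 arrays, namely Col4a1, Col4a2, Col18a1, Lamb2, Lamc1, Dcn, Mgp, Mmp14, Mmp24, Timp1, Timp2 and Timp3. 8 were detected on only 2 or 3 arrays, so their differences are between values near background. Col1a2, Col5a1, Col5a2, Fn1, Postn and Mmp9 were among those under the filter. Values below are log2 intensities after background correction and quantile normalization. A gene passed a comparison at a Benjamini-Hochberg adjusted p under 0.05 over all 11766 features and a difference of at least 1.5-fold.

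Mgp, Lamc1, Mmp2 and Col4a2 were the matrix genes that separated the genotypes most clearly. For these 4 genes all 6 Crhr1-ko arrays lay above all 6 Crhr1-wt arrays, whatever the treatment. Across all features this held for 90, or 0.765%, and 4 of 35 matrix genes is 11.4%. No matrix gene had all its Crhr1-ko arrays below all its Crhr1-wt arrays, which held for 2.05% of features. The 4 genes were the same without replicate 2 of the Crhr1-ko 3 h pool and in the authors' own processed values. After median centring in place of quantile normalization, only Mgp still met this rule, of 11 features in all. In bulk tissue, fewer or more cells of a type cannot be told apart from less or more RNA per cell.

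Mgp encodes matrix Gla protein, a secreted inhibitor of calcification made by cartilage and vascular smooth muscle cells. It had 10.48 and 10.35 in Crhr1-ko controls, 10.27 and 10.57 at 1 h and 10.51 and 10.95 at 3 h, against 9.77 and 9.61, 9.72 and 9.63, and 9.92 and 9.97 in the Crhr1-wt groups of the same treatments. The lowest Crhr1-ko array was thus above the highest Crhr1-wt array. The log2 difference, Crhr1-ko minus Crhr1-wt, was 0.72 ± 0.19 in controls, 0.74 ± 0.19 at 1 h and 0.79 ± 0.19 at 3 h (limma SE), with adjusted p of 0.0810, 0.104 and 0.0772. None of the 3 passed alone. Over the 6 groups together, Mgp had the smallest p of the moderated F test among the matrix genes, with an adjusted p of 0.0339, and 6.87% of all features had an adjusted p under 0.05 there. Median centring put the 3 h difference at 0.21, against 0.79, while the median of all features moved to −0.51, against −0.09. Relative to that median Mgp was 0.72 higher under centring and 0.88 higher under quantile normalization.

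Lamc1 encodes the laminin gamma 1 chain, which most laminins of basement membranes contain. It had 8.59 and 8.79, 8.51 and 8.94, and 8.56 and 8.53 in Crhr1-ko control, 1 h and 3 h arrays, against 8.13 and 7.96, 7.88 and 7.77, and 8.18 and 8.45 in the matching Crhr1-wt arrays. The gap was widest at 1 h, at 0.90 ± 0.19 (adjusted p = 0.0602), and narrowest at 3 h, at 0.23 ± 0.19 (adjusted p = 0.554). Leaving either Crhr1-ko 3 h array out of the fit moved the call of Lamc1 at 1 h and left its call in controls unchanged. Neither comparison holds those arrays, so the differences stayed the same and only the estimate of spread and the p-values changed.

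Mmp2, or gelatinase A, cuts denatured collagen and type IV collagen. It was detected on 5 of 6 arrays of either genotype and had 6.73 and 7.16, 7.16 and 7.08, and 6.76 and 7.29 in Crhr1-ko control, 1 h and 3 h arrays, against 6.24 and 6.11, 6.43 and 6.65, and 6.30 and 6.52 in Crhr1-wt arrays. The difference was 0.77 ± 0.22 in controls, 0.58 ± 0.22 at 1 h and 0.61 ± 0.22 at 3 h, with adjusted p of 0.106, 0.246 and 0.200. In Crhr1-ko pools the ranges of the 3 treatments overlapped.

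Averaging each pool first gave 3 Crhr1-ko pools against 3 Crhr1-wt pools. Mgp averaged 10.52 ± 0.18 in Crhr1-ko pools and 9.77 ± 0.15 in Crhr1-wt pools (SD, n = 3 each). Lamc1 averaged 8.65 ± 0.09 in Crhr1-ko pools and 8.06 ± 0.24 in Crhr1-wt pools, and Mmp2 averaged 7.03 ± 0.09 in Crhr1-ko pools and 6.38 ± 0.18 in Crhr1-wt pools. The exact two-sided permutation test on these pool means gave p = 0.1 for each of the 3 genes, the smallest value that 3 against 3 allows. That value was fixed in advance for genes whose Crhr1-ko arrays all lay above all Crhr1-wt arrays, so it adds no support. In the fit to 6 pools with genotype and treatment as terms, the difference of Mgp was 0.75 ± 0.18 with an adjusted p of 0.203. That fit called 6 of 11766 features (0.0510%) and no matrix gene, and 7 matrix genes had an unadjusted p under 0.05 with a higher Crhr1-ko level, against 3.54% of features. An average over the 3 treatments fitted on the 12 arrays, chosen after the data were seen, called Mgp, Lamc1, Mmp2 and Mmp14, with adjusted p of 0.00656, 0.0167, 0.0216 and 0.0343. It called 3.67% of features, 1.02% as higher in Crhr1-ko. Without replicate 2 of the Crhr1-ko 3 h pool that average called 453 features and, of the matrix genes, Mgp, Lamc1 and Col23a1, while Mmp2 (0.56) and Mmp14 (0.52) fell short of 1.5-fold.

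**Figure D1:**
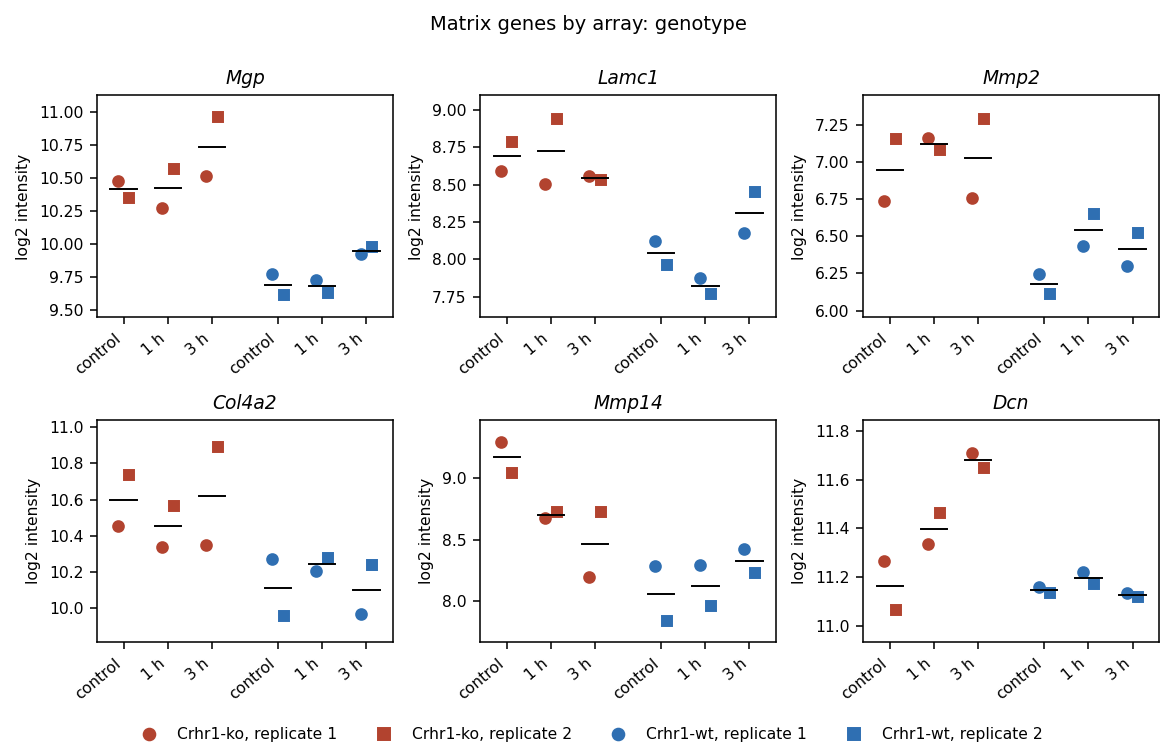
Log2 intensity (vertical axis) of 6 matrix genes on the 12 arrays, by genotype and treatment, with a bar at the mean of each pool's 2 arrays. Mgp, Lamc1, Mmp2 and Col4a2 have every Crhr1-ko array above every Crhr1-wt array, Mmp14 is highest in Crhr1-ko controls (9.30 and 9.05), and Dcn is highest in the Crhr1-ko 3 h pool (11.71 and 11.65).

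Col4a1 and Col4a2 encode the alpha 1 and alpha 2 chains of type IV collagen, which assemble into 1 trimer, and the genes lie head to head. Their windows of 250 bases before to 50 after the transcription start, from RefSeq on GRCm38.p6, lie at chr8:11312777-11313076 on the minus strand (Col4a1) and chr8:11312555-11312854 on the plus strand (Col4a2) and share 78 bases. They are shown because the 2 chains share this stretch, and the capitals mark each GC box, GGGCGG, on either strand.
Col4a1: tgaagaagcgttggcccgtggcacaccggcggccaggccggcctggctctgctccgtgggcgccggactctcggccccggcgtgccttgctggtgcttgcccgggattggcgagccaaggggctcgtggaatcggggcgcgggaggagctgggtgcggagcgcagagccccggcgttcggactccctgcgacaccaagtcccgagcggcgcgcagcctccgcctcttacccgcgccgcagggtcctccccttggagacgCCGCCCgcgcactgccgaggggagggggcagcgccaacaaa
Col4a2: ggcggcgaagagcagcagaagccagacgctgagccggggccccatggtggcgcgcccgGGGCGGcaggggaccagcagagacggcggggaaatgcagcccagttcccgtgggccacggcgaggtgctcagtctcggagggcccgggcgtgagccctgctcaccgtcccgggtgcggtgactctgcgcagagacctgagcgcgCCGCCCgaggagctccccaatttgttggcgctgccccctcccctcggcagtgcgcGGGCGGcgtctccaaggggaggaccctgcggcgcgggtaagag
The box at chr8:11312812-11312817 lies in the shared stretch and so appears in both. The GC box is in 35.7% of all 32851 windows of this table.

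Over the 12 arrays Col4a1 and Col4a2 correlated at 0.363 (Pearson, a description over arrays that share pools and slides). Col4a2 had 10.46 and 10.74, 10.34 and 10.57, and 10.35 and 10.89 in Crhr1-ko control, 1 h and 3 h arrays, against 10.27 and 9.96, 10.20 and 10.28, and 9.96 and 10.24 in Crhr1-wt arrays. Col4a1 had 9.19 and 8.96, 9.31 and 9.74, and 9.61 and 9.76 in Crhr1-ko control, 1 h and 3 h arrays, against 9.35 and 9.24, 9.35 and 8.98, and 9.16 and 9.29 in Crhr1-wt arrays. Col4a2 separated the genotypes at each treatment, whereas for Col4a1 the 2 Crhr1-ko arrays lay below both Crhr1-wt arrays in controls, overlapped them at 1 h and lay above them at 3 h. The 3 h difference between stressed and control Crhr1-ko pools was 0.02 ± 0.22 for Col4a2 (adjusted p = 0.958) and 0.61 ± 0.20 for Col4a1 (adjusted p = 0.0833), so neither passed. The 3 h genotype differences of 0.52 (Col4a2) and 0.47 (Col4a1) were −0.06 and −0.12 after median centring. For Col4a2 the 3 h difference was 0.24 without replicate 2 of the Crhr1-ko 3 h pool (adjusted p = 0.760) and 0.79 without replicate 1 (adjusted p = 0.0387), so the size rests on the array kept.

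Mmp14 was the matrix gene that passed between the genotypes in controls, where 271 features (2.30%) passed. Mmp14, or MT1-MMP, is a membrane-bound collagenase that also activates Mmp2. It had 9.30 and 9.05 in Crhr1-ko controls, against 8.28 and 7.84 in Crhr1-wt controls, a difference of 1.11 ± 0.24 (adjusted p = 0.0483). Within slides the difference was 1.02 and 1.21. In a fit of every detected probe Mmp14 did not pass in controls. At 1 h it had 8.68 and 8.73 in Crhr1-ko arrays, against 8.29 and 7.96 in Crhr1-wt arrays, and at 3 h 8.20 and 8.73, against 8.42 and 8.23. The groups did not overlap at 1 h and did at 3 h, where the difference was 0.14 ± 0.24 (adjusted p = 0.798). By the probe used per gene, Mmp14 was the matrix gene whose 4 stressed Crhr1-ko arrays all lay below both Crhr1-ko control arrays. A further Mmp24 probe met this rule too, as did 16.8% of features. For Mmp14 the differences from control were −0.47 ± 0.24 at 1 h (adjusted p = 0.439) and −0.71 ± 0.24 at 3 h (adjusted p = 0.0847). The 3 h value was −0.98 without replicate 2 of the Crhr1-ko 3 h pool and −0.44 without replicate 1 (adjusted p = 0.0585 and 0.199). The genotypes' 3 h responses differed by −0.97 ± 0.33, which did not pass (adjusted p = 0.186). The control call for Mmp14 was lost when any array but the 2 Crhr1-ko 3 h arrays was left out, with adjusted p of 0.0769 to 0.238.

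Restraint went with higher Timp2 and Timp3 in Crhr1-ko pituitaries, the only 2 matrix genes that passed in any of the 4 comparisons of stressed with control mice. At 3 h against control in Crhr1-ko pituitaries 1243 features (10.6%) passed, 472 of them higher (4.01%), so 2 of 35 matrix genes is near the background share. No matrix gene passed at 1 h in Crhr1-ko (0.229% of features), at 1 h in Crhr1-wt (0.0680%) or at 3 h in Crhr1-wt (0.229%). At an unadjusted limma p under 0.05, 2 matrix genes were higher and 0 lower at 1 h in Crhr1-ko (7.10% and 5.95% of features), 0 and 0 at 1 h in Crhr1-wt (3.44% and 2.18%), and 2 and 3 at 3 h in Crhr1-wt (5.69% and 6.26%). Timp2 and Timp3 encode inhibitors with a broad range of metalloproteinase targets. Timp2 also takes part in the activation of Mmp2 by Mmp14, and Timp3 is the family member that is bound to the matrix. Timp2 had 10.21 and 10.03, 10.76 and 10.96, and 10.94 and 10.97 in Crhr1-ko control, 1 h and 3 h arrays. In Crhr1-wt control, 1 h and 3 h arrays it had 10.53 and 10.57, 10.38 and 10.50, and 10.29 and 10.42. The Crhr1-ko control arrays were the lowest of the 12 and the 4 stressed Crhr1-ko arrays the highest, while in Crhr1-wt the 4 stressed arrays lay below both controls.

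The difference between stressed and control Crhr1-ko pools for Timp2 was 0.84 ± 0.15 at 3 h (adjusted p = 0.0146) and 0.74 ± 0.15 at 1 h (adjusted p = 0.109), against −0.19 ± 0.15 and −0.10 ± 0.15 in Crhr1-wt pools (adjusted p = 0.645 and 1.00). The difference between the genotypes' responses was 1.03 ± 0.21 at 3 h (adjusted p = 0.0764) and 0.85 ± 0.21 at 1 h (adjusted p = 0.274), so neither passed. No matrix gene passed for a difference in response, of 0.0510% of features at 1 h and 0.170% at 3 h. At an unadjusted limma p under 0.05 the counts were 2 higher and 0 lower at 1 h (5.24% and 4.97% of features), and 5 and 5 at 3 h (7.55% and 10.4%). Within slides the Crhr1-ko 3 h difference was 0.74 and 0.94. Timp2 still passed without replicate 2 of the Crhr1-ko 3 h pool (adjusted p = 0.0430). It did not pass without replicate 1 or 2 of the Crhr1-ko control pool (adjusted p = 0.0657 and 0.127), nor after median centring, where the difference was 0.46 (adjusted p = 0.414). In controls the genotype difference of Timp2 was −0.43 ± 0.15 (adjusted p = 0.167), with both Crhr1-ko arrays below both Crhr1-wt arrays.

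Timp3 had 9.86 and 9.81, 10.52 and 10.70, and 10.49 and 10.71 in Crhr1-ko control, 1 h and 3 h arrays. In Crhr1-wt control, 1 h and 3 h arrays it had 10.19 and 9.94, 10.29 and 10.13, and 10.27 and 10.45. As for Timp2, the Crhr1-ko controls were the lowest arrays and the 4 stressed Crhr1-ko arrays the highest. In Crhr1-ko pools the difference was 0.77 ± 0.17 at 3 h (adjusted p = 0.0258) and 0.78 ± 0.17 at 1 h (adjusted p = 0.125), against 0.30 ± 0.17 and 0.15 ± 0.17 in Crhr1-wt pools (adjusted p = 0.517 and 1.00). Timp3 did not pass without replicate 2 of the Crhr1-ko 3 h pool (0.65, adjusted p = 0.0870), without either Crhr1-ko control array (adjusted p = 0.111 and 0.156), or after median centring (0.40, adjusted p = 0.458). A further probe for Timp3 gave 0.89 ± 0.44 for the same 3 h comparison (adjusted p = 0.218).

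The start regions of Timp2, at chr11:118355362-118355661 on the minus strand, and Timp3, at chr10:86300162-86300461 on the plus strand, are shown because these 2 genes passed together. The windows and build are those used above. The motifs searched on both strands were the TATA box TATAAA, the AP-1 site TGANTCA, the cyclic AMP response element TGACGTCA and the GC box GGGCGG, of which no motif contains another, and capitals mark each match.
Timp2: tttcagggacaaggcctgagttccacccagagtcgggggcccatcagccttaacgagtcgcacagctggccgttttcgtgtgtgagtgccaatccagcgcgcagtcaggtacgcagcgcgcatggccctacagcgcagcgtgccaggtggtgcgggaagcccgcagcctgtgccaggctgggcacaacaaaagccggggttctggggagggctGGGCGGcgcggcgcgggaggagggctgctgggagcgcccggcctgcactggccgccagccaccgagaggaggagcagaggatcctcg
Timp3: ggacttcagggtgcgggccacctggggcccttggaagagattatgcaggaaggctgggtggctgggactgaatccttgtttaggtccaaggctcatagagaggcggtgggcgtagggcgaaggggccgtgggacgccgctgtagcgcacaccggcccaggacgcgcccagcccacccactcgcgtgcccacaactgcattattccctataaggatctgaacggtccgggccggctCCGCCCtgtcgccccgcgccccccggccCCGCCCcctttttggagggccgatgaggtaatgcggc
Timp2 held 1 GC box, 37 bases before the start, and Timp3 held 2, and the other 3 motifs were not in these 300 bases. Of 35 matrix genes 28 had a window in the table, 32 windows in all, and 19 of the 32 held a GC box.

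Timp1, the third inhibitor measured, is known to be induced by growth factors and cytokines. It had 7.95 and 8.27, 8.17 and 8.02, and 7.89 and 8.18 in Crhr1-ko control, 1 h and 3 h arrays, against 7.75 and 7.93, 7.89 and 7.75, and 8.32 and 8.73 in Crhr1-wt arrays. The Crhr1-ko groups overlapped, and the Crhr1-wt 3 h arrays were the 2 highest of the 12. At 3 h the difference from control was −0.07 ± 0.20 in Crhr1-ko pools (adjusted p = 0.844) and 0.69 ± 0.20 in Crhr1-wt pools (adjusted p = 0.242), and neither passed. The genotypes' 3 h responses differed by −0.76 ± 0.29 (adjusted p = 0.220).

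6 matrix genes had all 4 stressed Crhr1-ko arrays above both Crhr1-ko controls (Timp2, Timp3, Col4a1, Dcn, Mmp24 and Col1a1), a pattern found in 11.9% of features. In Crhr1-wt pituitaries Mmp2, Mmp10 and Col4a5 met the same rule, which 7.25% of features met, and Timp2, Col15a1, Col23a1 and Eln lay below both controls on all 4 stressed arrays, as did 9.18% of features. Over the 12 arrays Timp2 correlated with Timp3 at 0.824 and with Col4a1 at 0.854, and Timp3 with Col4a1 at 0.811. These are descriptions over arrays that share pools and slides.

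Dcn encodes decorin, a proteoglycan that binds type I collagen and growth factors of the TGF-beta family. It had 11.27 and 11.07, 11.34 and 11.46, and 11.71 and 11.65 in Crhr1-ko control, 1 h and 3 h arrays, against 11.16 and 11.13, 11.22 and 11.17, and 11.14 and 11.12 in Crhr1-wt arrays. The Crhr1-wt arrays lay between 11.12 and 11.22, and the Crhr1-ko 3 h arrays were the highest of the 12. The 3 h difference from control was 0.51 ± 0.14 in Crhr1-ko pools, at an adjusted p of 0.0509 and below the 1.5-fold limit. The 4 detected Dcn probes did not agree on it, since the other 3 gave 0.41, −0.02 and −0.43. After median centring the 3 h genotype difference of the probe used was −0.06, against 0.55 with quantile normalization.

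**Figure D2:**
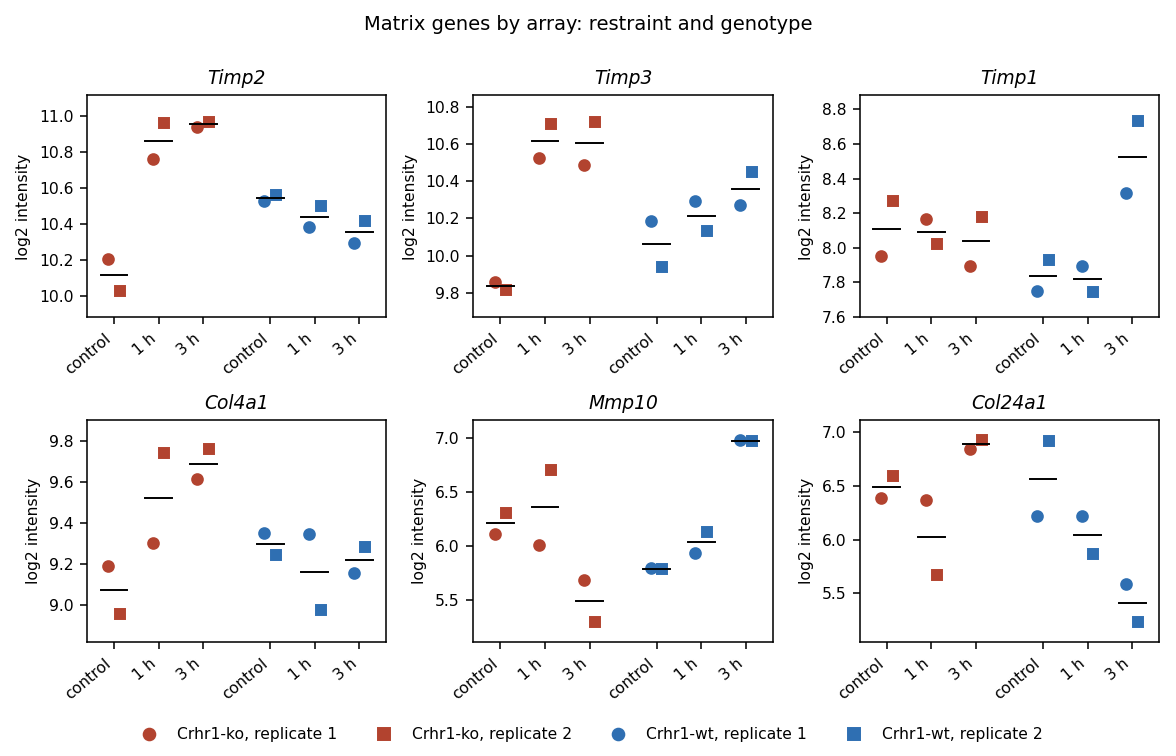
Log2 intensity (vertical axis) of 6 matrix genes on the 12 arrays, by genotype and treatment, with a bar at the mean of each pool's 2 arrays. Timp2, Timp3 and Col4a1 have low Crhr1-ko controls and high stressed Crhr1-ko arrays, Timp1 and Mmp10 are highest in the Crhr1-wt 3 h arrays, and Col24a1 is lowest there (5.58 and 5.23).

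At 3 h Mmp10 and Col24a1 met the limits between the genotypes, in opposite directions, of 203 features (1.73%), and neither did without replicate 2 of the Crhr1-ko 3 h pool. Mmp10, or stromelysin-2, cuts proteoglycans, laminin and other matrix proteins and activates other metalloproteinases. It had 5.68 and 5.29 in Crhr1-ko 3 h arrays, against 6.98 and 6.97 in Crhr1-wt 3 h arrays, a difference of −1.49. The probe was detected on neither Crhr1-ko 3 h array and on both Crhr1-wt 3 h arrays, and without those 2 arrays it would not have entered the tests. Its difference is therefore given as a description, and the fold is a bound: the level was at least 1.10-fold lower in Crhr1-ko, set against the dimmest probes detected there. In controls it had 6.11 and 6.31 in Crhr1-ko arrays and 5.79 in both Crhr1-wt arrays, and at 1 h 6.01 and 6.71 in Crhr1-ko arrays and 5.94 and 6.13 in Crhr1-wt arrays. Of those 8 arrays 1, of the Crhr1-ko 1 h pool, detected it, and the Crhr1-wt 3 h pool was the one with Mmp10 above background on both arrays.

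Against control, the 3 h difference of Mmp10 was −0.73 in Crhr1-ko pools, where neither group was detected, and 1.19 in Crhr1-wt pools (at least 1.69-fold). The genotype difference at 3 h was −1.30 without replicate 2 of the Crhr1-ko 3 h pool and −1.71 after median centring.

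Col24a1 encodes a minor fibrillar collagen chain known from developing bone and eye. It had 6.84 and 6.92 in Crhr1-ko 3 h arrays, against 5.58 and 5.23 in Crhr1-wt 3 h arrays. The difference was 1.48 ± 0.30 (adjusted p = 0.0467). It was detected on 1 of the 2 Crhr1-ko arrays and on neither Crhr1-wt array, so the size of this difference is uncertain. Crhr1-ko control and 1 h arrays had 6.39 and 6.59, and 6.37 and 5.67, and Crhr1-wt control and 1 h arrays had 6.21 and 6.91, and 6.22 and 5.86. In those treatments the genotypes overlapped, and the Crhr1-wt 3 h arrays were the 2 lowest of the 12. With slide as a block the adjusted p was 0.0536, and without replicate 2 of the Crhr1-ko 3 h pool it was 0.160. The call held without replicate 1 of that pool or either Crhr1-ko 1 h array, and was lost without any of the other 8 arrays (adjusted p of 0.0511 to 0.315). The other Col24a1 probe detected gave 0.34 ± 0.40 at 3 h (adjusted p = 0.688). The genotypes' 3 h responses differed by 1.55 ± 0.42 (adjusted p = 0.117).

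The start regions of Mmp10, at chr9:7502092-7502391, and Col24a1, at chr3:145292222-145292521, both on the plus strand, are shown as the pair with opposite differences at 3 h. Capitals mark matches to the same 4 motifs.
Mmp10: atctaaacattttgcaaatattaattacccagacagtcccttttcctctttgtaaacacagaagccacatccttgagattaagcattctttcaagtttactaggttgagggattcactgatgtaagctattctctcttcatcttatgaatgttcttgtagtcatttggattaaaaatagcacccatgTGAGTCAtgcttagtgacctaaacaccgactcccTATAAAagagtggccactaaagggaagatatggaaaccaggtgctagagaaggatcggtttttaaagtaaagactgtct
Col24a1: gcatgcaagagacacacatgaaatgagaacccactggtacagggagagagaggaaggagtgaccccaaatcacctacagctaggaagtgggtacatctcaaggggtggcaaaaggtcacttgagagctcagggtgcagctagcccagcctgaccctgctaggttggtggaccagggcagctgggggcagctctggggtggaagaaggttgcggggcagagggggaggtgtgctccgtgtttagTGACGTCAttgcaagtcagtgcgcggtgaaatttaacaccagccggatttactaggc
Mmp10 held a TATA box 29 bases and an AP-1 site 63 bases before the start, and Col24a1 held a cyclic AMP response element 7 bases before it. Of all 32851 windows 13.6% held TATAAA, 7.81% TGANTCA and 1.79% TGACGTCA, and of the 32 matrix gene windows 5, 2 and 1 did. A match describes these letters only.

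The share of collagens higher in Crhr1-ko varied with class and treatment. This is a description, since no difference between classes, or of a class between treatments, was tested. No collagen passed between the genotypes in controls or at 1 h. The 5 fibrillar collagen genes were higher in Crhr1-ko in 2 of 5 in controls (median difference −0.08), 2 of 5 at 1 h (−0.02) and 5 of 5 at 3 h (1.02). These 5 genes were detected on only 2 to 7 arrays each, so many of their values lie near background. Col11a2 had 8.56 on replicate 2 of the Crhr1-ko 3 h pool and 5.57 on replicate 1. The 3 h count was 4 of 5 (0.78) without replicate 2 of that pool. Their average over the 3 treatments was above 0 for 5 of 5 genes with that array (0.35) and 4 of 5 without it (0.37). With all arrays the 3 h difference was the largest of the 3 for Col11a2, Col1a1 and Col24a1, and not for Col27a1 and Col3a1.

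The basement membrane and network collagens were higher in Crhr1-ko in 5 of 6 genes in controls (0.30), 6 of 6 at 1 h (0.22) and 3 of 6 at 3 h (0.13), or 6 of 6 (0.31) without that array. The fibril-associated, beaded and transmembrane collagens were higher in 5 of 6 (0.07), 6 of 6 (0.23) and 4 of 6 (0.31, and 0.53 without that array). The small leucine-rich proteoglycans were higher in 3 of 3 (0.12), 3 of 3 (0.62) and 2 of 3 (0.55), or 3 of 3 (0.58) without it. Most genes of these 3 classes were thus higher in Crhr1-ko in controls and at 1 h.

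The laminins were higher in Crhr1-ko in 3 of 3 (0.25), 2 of 3 (0.24) and 2 of 3 (0.23, and 0.06 in 3 of 3 without that array). The Timp genes were higher in 1 of 3 in controls (−0.23), 3 of 3 at 1 h (0.40) and 2 of 3 at 3 h (0.24, and 0.13 without it). The metalloproteinases were higher in 3 of 5 (0.42), 4 of 5 (0.32) and 2 of 5 (−0.28, and −0.21 in 1 of 5 without it), and the glycoproteins in 1 of 4 (−0.32), 3 of 4 (0.33) and 2 of 4 (0.07, and 0.34 in 3 of 4 without it). The order of the genotypes in these 4 groups varied with the treatment.

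In all, 23 of 35 matrix genes were higher in Crhr1-ko in controls, 29 of 35 at 1 h and 22 of 35 at 3 h, against 50.9%, 50.4% and 40.3% of features. At 3 h it was 26 of 35 without replicate 2 of the Crhr1-ko 3 h pool, against 52.3% of features. Averaged over the 3 treatments 27 of 35 were higher with or without that array, with a median of 0.20 and 0.22, against 46.8% and 51.4% of features, whose median was −0.02 and 0.01. These counts describe the genes that passed the detection filter, of which 2 (Col15a1 and Col3a1) did so through Crhr1-ko arrays alone and 6 (Col17a1, Col1a1, Col6a2, Mmp10, Mmp23 and Sparc) through Crhr1-wt arrays alone. Of the 25 that either genotype's arrays would have kept, 18, 21 and 16 were higher in Crhr1-ko in controls, at 1 h and at 3 h. Under median centring the median of all features was below 0 in each of these, and 18, 28 and 13 of the 35 were above 0, while 21, 29 and 24 were above that median.

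At 1 h no matrix gene passed between the genotypes, while 93 features (0.790%) did. At an unadjusted limma p under 0.05, 5 matrix genes differed in controls (18.9% of features), 4 of them higher in Crhr1-ko (8.85%) and 1 lower. At 1 h 9 were higher and 0 lower (6.61% and 9.44%), and at 3 h 9 were higher and 3 lower (6.13% and 11.7%). The 3 h counts were 8 and 2 without replicate 2 of the Crhr1-ko 3 h pool.

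**Figure D3:**
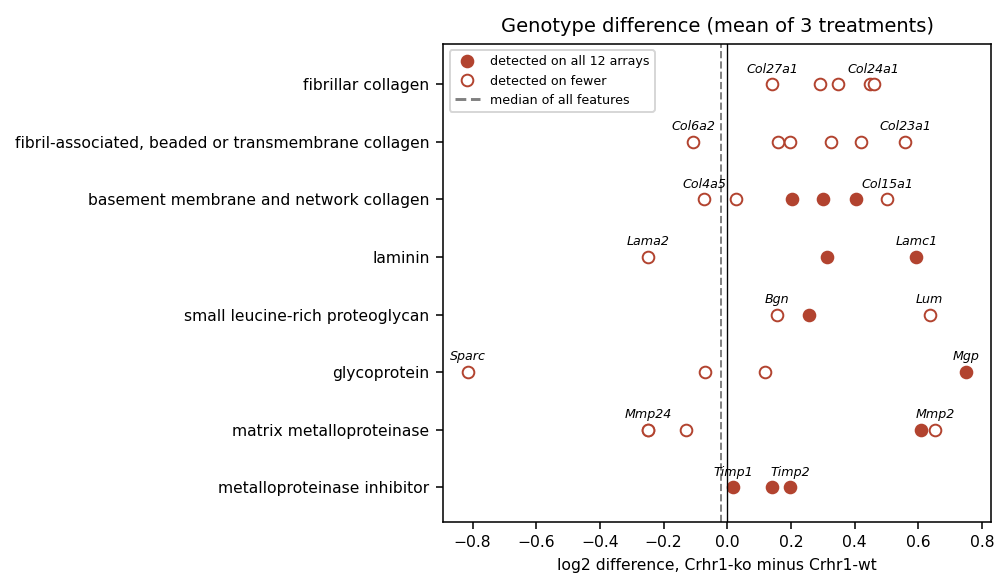
Log2 difference, Crhr1-ko minus Crhr1-wt, of the 35 matrix genes as the mean over the 3 treatments (horizontal axis), by role, with the lowest and highest gene of each role named. Filled points were detected on all 12 arrays, the dashed line is the median of all 11766 features (−0.02), and 27 of 35 points lie right of 0, from Sparc at −0.81 to Mgp at 0.75.

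The pool mean was above that of Crhr1-wt at each of the 3 treatments for 13 matrix genes, against 12.6% of features, and below it at each for 2, against 18.8%. The 13 were Mgp, Lamc1, Lamb2, Mmp2, Mmp14, Col4a2, Col15a1, Col3a1, Col6a1, Col17a1, Col23a1, Dcn and Lum. The 2 that ran lower were Mmp24 and Sparc. Without replicate 2 of the Crhr1-ko 3 h pool the counts were 17, with 12 of the 13 among them, and 3, against 17.2% and 15.7% of features. Col15a1 and Col3a1 entered the tests through Crhr1-ko arrays alone, and Col17a1 and Sparc through Crhr1-wt arrays alone, so the counts are a description. Col15a1, a basement membrane collagen of vessel walls, was detected on 4 of 6 Crhr1-ko arrays and 0 of 6 Crhr1-wt arrays. Lum, or lumican, had 5.83 to 7.11 in Crhr1-ko arrays and 5.32 to 6.40 in Crhr1-wt arrays, and was detected on 4 of 6 and 2 of 6.

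Sparc, a collagen-binding glycoprotein known for folding and deposition of collagen, had the widest range of group means among the matrix genes, at 1.90. It had 5.69 and 5.64, 5.32 and 5.72, and 7.24 and 5.10 in Crhr1-ko control, 1 h and 3 h arrays, against 5.51 and 6.66, 5.73 and 6.86, and 7.85 and 6.99 in Crhr1-wt arrays. It was detected on 1 of 6 Crhr1-ko arrays and 4 of 6 Crhr1-wt arrays, and the 2 arrays of a pool lay as far apart as 7.24 and 5.10. The pool fit gave −0.81 ± 0.21 (adjusted p = 0.243), a description, since the gene entered the tests through Crhr1-wt arrays. The value was −0.46 without replicate 2 of the Crhr1-ko 3 h pool and −1.17 without replicate 1, and −0.91 after median centring, where it met both limits (adjusted p = 0.0422). The genes most like Sparc over the 12 arrays were Col4a4 (Pearson correlation 0.672), Mmp24 (0.625) and Mmp10 (0.479).

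Col11a2 and Col13a1 had wide ranges of group means, with their highest value on a single array. Col11a2, a chain of cartilage fibrils, had 8.56 on replicate 2 of the Crhr1-ko 3 h pool and 5.57 on replicate 1, and 5.71 to 6.30 on the other 10 arrays. Col13a1, a transmembrane collagen, had 8.73 and 5.52 on the same arrays and 5.49 to 6.98 elsewhere. Neither passed, with 3 h differences from control of 1.25 ± 0.73 and 1.25 ± 0.86. Other 3 h genotype differences also moved with the array kept, as for Mgp, which had 0.56 without replicate 2 of that pool and 1.01 without replicate 1.

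Col18a1, whose C-terminal fragment is endostatin, had 8.88 and 8.70, 9.05 and 9.05, and 8.83 and 8.34 in Crhr1-ko control, 1 h and 3 h arrays, against 8.51 and 8.26, 8.45 and 8.18, and 8.80 and 8.86 in Crhr1-wt arrays. The genotypes were apart in controls and at 1 h (0.73 ± 0.20, adjusted p = 0.120) and overlapped at 3 h. Mmp24, or MT5-MMP, a membrane-bound enzyme known from the nervous system, had 2 detected probes that opposed each other. The probe used had 9.72 and 9.76 in Crhr1-ko controls, against 9.80 and 10.26 in Crhr1-wt controls (−0.29 ± 0.18, adjusted p = 0.437). The other had 8.17 and 8.26 in Crhr1-ko controls, against 7.34 and 6.64 in Crhr1-wt controls, a difference of 1.22 ± 0.22 that passed in a fit of every detected probe (adjusted p = 0.0335). It also fell in Crhr1-ko pools at 3 h against control, with −1.15 ± 0.22 (adjusted p = 0.0189), so the direction for Mmp24 is not settled. Of the 35 genes 7 had a further detected probe.

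**Figure D4:**
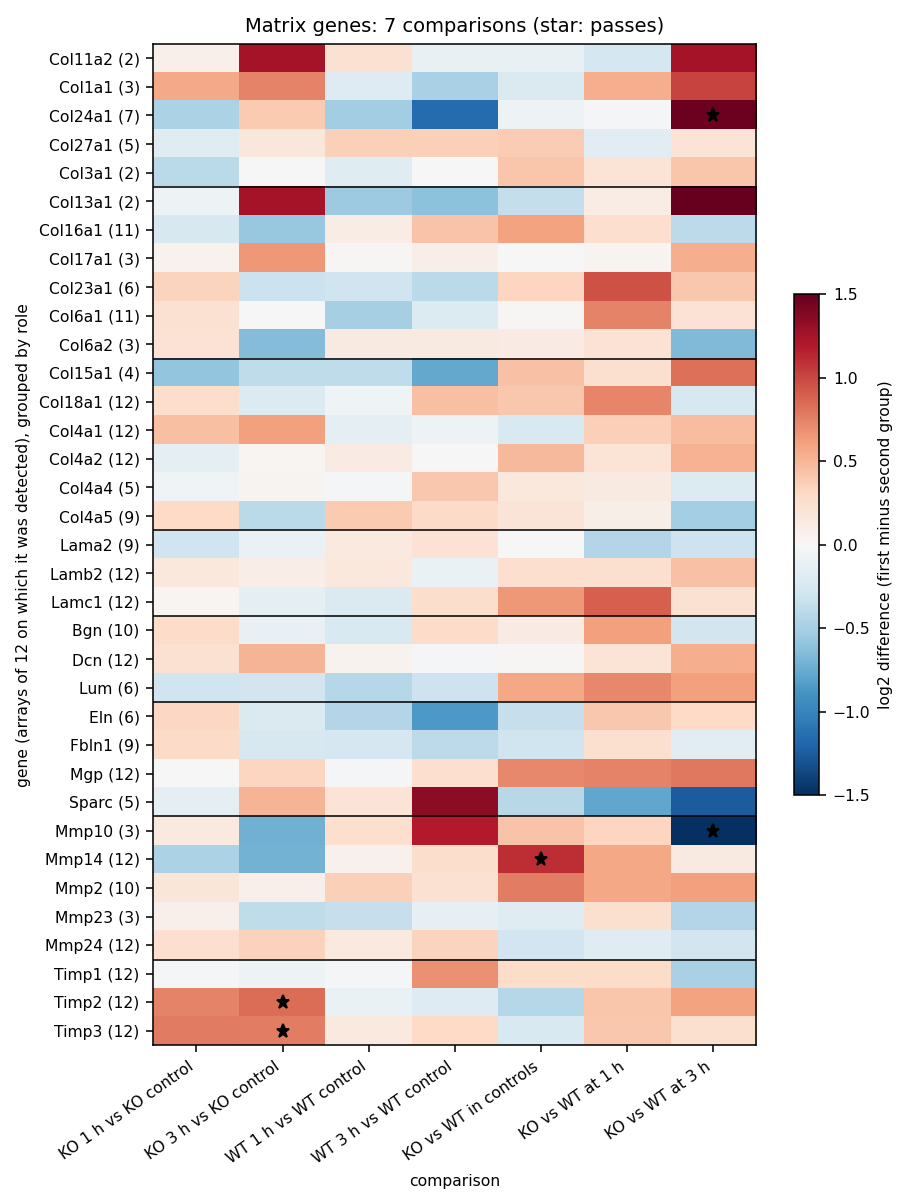
Log2 difference (colour, first minus second group, cut off at 1.5 either way) of the 35 matrix genes in 7 comparisons, in rows by role, with the number of arrays that detected each gene in brackets. Stars mark the 5 differences that met both limits, Timp2 and Timp3 (Crhr1-ko 3 h against control), Mmp14 (genotype, controls), and Col24a1 and Mmp10 (genotype, 3 h), of which Mmp10 is a description only.

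Partner genes of the matrix passed mostly in the Crhr1-ko 3 h comparison, where 10.6% of features did. Of 17 measured TGF-beta signalling genes 3 rose there: the receptor Tgfbr2 (0.76 ± 0.17, adjusted p = 0.0264), the target Tgfbi (1.23 ± 0.29, adjusted p = 0.0299) and Ccn2, or connective tissue growth factor (1.28 ± 0.33, adjusted p = 0.0411). Of these genes 12 of 17 were above 0, with a median of 0.26 against −0.11 over all features. Without replicate 2 of the Crhr1-ko 3 h pool Tgfbi still passed (1.55, adjusted p = 0.0308), and Tgfbr2 (0.71, adjusted p = 0.0831) and Ccn2 (1.46, adjusted p = 0.0721) did not. In Crhr1-wt pools at 3 h 10 of 17 were above 0, with a median of 0.03, and 0 passed.

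Of 21 genes for collagen folding, modification and cross-linking 1 rose in Crhr1-ko pools at 3 h, Plod2, a lysyl hydroxylase (0.77 ± 0.16, adjusted p = 0.0225), and 0 fell. Of 6 basement membrane partners 2 fell, the heparan sulfate proteoglycan Agrn (−1.10 ± 0.23, adjusted p = 0.0233) and Smoc1 (−1.20 ± 0.25, adjusted p = 0.0212). Of 13 other matrix proteins Tnxb, or tenascin X, rose (1.11 ± 0.22, adjusted p = 0.0209). None of these 4 genes passed without replicate 2 of the Crhr1-ko 3 h pool, with 0.77 for Plod2, −0.97 for Agrn, −0.85 for Smoc1 and 0.95 for Tnxb (adjusted p of 0.0629, 0.0812, 0.0668 and 0.0738). Efemp1, or fibulin-3, was lower in Crhr1-ko in controls (−0.88 ± 0.16, adjusted p = 0.0369) and at 1 h (−1.22 ± 0.16, adjusted p = 0.0227). In these comparisons 2.30% and 0.790% of features passed. Most of its list went the other way, with 8 and 10 of the 13 other matrix proteins higher in Crhr1-ko (medians of 0.04 and 0.34). Of 13 matrix receptors and 10 other proteases and inhibitors none passed in any comparison.

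Markers of cells that make matrix were set beside the genotype results. Of 12 endothelial genes measured 9, 8 and 9 were higher in Crhr1-ko in controls, at 1 h and at 3 h, with medians of 0.36, 0.18 and 0.17, and none passed. Their summed linear intensity was 3671 to 3848, 4176 to 4187 and 4288 to 4336 in Crhr1-ko control, 1 h and 3 h arrays, against 3225 to 3642, 3668 to 4035 and 3830 to 3947 in Crhr1-wt arrays, so it was higher in Crhr1-ko at each treatment. Kdr, Tie1, Sox17 and Vwf were detected on no array. Of 9 pericyte and smooth muscle genes Acta2 (1.38 ± 0.19, adjusted p = 0.0140) and Rgs5 (1.52 ± 0.24, adjusted p = 0.0209) were higher in Crhr1-ko at 3 h. Neither passed without replicate 2 of the Crhr1-ko 3 h pool (1.36 and 1.49, adjusted p of 0.0635 and 0.0807). Their list summed to 1432 to 1527, 1193 to 1445 and 1603 to 1715 in Crhr1-ko control, 1 h and 3 h arrays, against 1059 to 1334, 1330 to 1434 and 1066 to 1077 in Crhr1-wt arrays, so it was higher in Crhr1-ko in controls and at 3 h and overlapped at 1 h. Tagln, Myh11, Cnn1 and Des were detected on no array.

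Of 8 fibroblast genes measured 4 were higher and 4 lower in Crhr1-ko at each treatment, and their sum was 1574 to 1644, 1621 to 1674 and 1702 to 1929 in Crhr1-ko control, 1 h and 3 h arrays, against 1853 to 1908, 2052 to 2162 and 1358 to 1478 in Crhr1-wt arrays. The sum was thus lower in Crhr1-ko in controls and at 1 h and higher at 3 h. With the genes split evenly at each treatment, the sum does not describe most of the list. Fap, Dpt, Twist1 and Cdh11 were detected on no array. The bone and cartilage list had 3 measured genes (Sox9, Acan and Phex), and its sum was 705 to 780 in Crhr1-ko controls, against 311 to 482 in Crhr1-wt controls. Sox9 was higher in Crhr1-ko controls (1.54 ± 0.24, adjusted p = 0.0226). It was the 1 gene of these 3 above 0 there, and the median of the list was −0.06. 11 other genes of this list on the array, among them Bglap, Ibsp, Sp7, Comp and Matn1, were detected on no array.

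All 5 red blood cell genes were higher in Crhr1-ko in controls and at 1 h, with Hbb-b2 (1.78 ± 0.25, adjusted p = 0.0154) and Hbb-bs (0.80 ± 0.15, adjusted p = 0.0400) passing in controls. Their sum was 11404 to 12053 in Crhr1-ko controls, against 7797 to 7882 in Crhr1-wt controls. Plvap, a protein of fenestrated capillaries, was the endothelial gene that passed in Crhr1-ko pools at 3 h against control (1.25 ± 0.19, adjusted p = 0.00982). Without replicate 2 of the 3 h pool the difference was 1.03. Only 6 of the 12 endothelial genes were above 0 in this comparison, with a median of 0.04 against −0.11 over all features. Of the 11 macrophage genes Lyz1 (3.52) and Lyz2 (1.98) passed higher and Cx3cr1 (−1.23) lower in that comparison. Without that array the differences were 3.84, 2.38 and −1.33. These genes were detected on only 2, 6 and 4 arrays. The sum of the list was 1135 to 1363 in Crhr1-ko 3 h arrays, against 844 to 890 in Crhr1-ko controls. Only 3 of the 11 genes were above 0 there, with a median of −0.21 against −0.11 over all features. The higher sum therefore does not describe most of the list. The sum of 5 folliculostellate and stem cell genes was 4108 to 4346 in Crhr1-ko 3 h arrays, against 2755 in both Crhr1-ko controls, and 4490 to 5076 in Crhr1-wt 3 h arrays, against 2589 to 2642 in Crhr1-wt controls, and S100b, Vim and Fxyd1 of this list were detected on no array. The part of any of these cell types in the matrix gene differences was not tested.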

How the data were processed

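RNA of pooled pituitaries was measured on 12 Illumina bead arrays. The deposited intensity values are mean bead intensities per probe, per the file headers, from BeadStudio per the submitters' processing notes, and their differing medians show no normalization between arrays. The detection p-value of each probe was deposited with them, per the file headers, and compares it with negative control beads. The authors' own table holds intensities already scaled between arrays by a method not given in the sources used here, and served as an alternative.

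With limma 3.58.1 (R 4.3.3), intensities were background-corrected (normexp), offset by 16, quantile normalized and put on the log2 scale (neqc). Of 46147 probes, 14405 had a detection p under 0.01 on at least 2 arrays. The brightest probe per gene symbol gave 11766 features, 8592 with a symbol. On the array 29542 probes had 1 symbol, 11 several and 16594 none. lmFit and eBayes were run across all features on the 12 arrays with 1 term per group, and p-values were adjusted by Benjamini-Hochberg. Pool means were fitted with genotype and treatment. The number of arrays limits the precision.

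The genes and lists were chosen with earlier results of these data known. Genes are named that passed, were among the 10 brightest or had 1 of the 5 widest ranges. Mmp2, Timp1, Lum and Col15a1 were added after their values were seen. Start regions come from the RefSeq table of GRCm38.p6, and the array's own assembly was not used. Alternatives were slide as a block, array weights, median centring, no background correction, other filters and probes, the authors' table and leaving out each array.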

Additional observations from a re-analysis of the deposited data

How the results depend on the processing

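Counts below are of matrix genes that passed. The count over all features is given where it moved by over 1.5 times, except for the fits that left out 1 array. Matrix gene counts from those fits are not set against a share of all features and describe only how far the calls moved. The cause of each move was not tested. With array quality weights the counts were 1 for Crhr1-ko 1 h (112 features, against 27), 0 for Crhr1-ko 3 h (111, against 1243), 1 for Crhr1-wt 3 h (89, against 27), 3, 3 and 0 between the genotypes in controls, at 1 h and at 3 h (875, 469 and 24, against 271, 93 and 203), and 6 in the F test (1654, against 808). With median centring they were 0 for Crhr1-ko 3 h (166 features), 0 between the genotypes in controls (34), 1 at 3 h, 0 in the F test (285) and 1 in the pool fit (303, against 6). Without background correction they were 2 for Crhr1-ko 1 h (107 features), 2 and 2 between the genotypes in controls and at 1 h (258 at 1 h), 2 for the difference in 3 h response (353, against 20) and 7 in the F test (1791). The authors' table gave 0 between the genotypes in controls (132 features), 1 at 3 h and 1 in the F test (467). No detection filter gave 0 in controls (89), 1 at 3 h (98) and 0 in the F test (392). Detection on 6 or more arrays gave 1 at 1 h (199) and 1 at 3 h, every detected probe 1 at 3 h, and only the arrays compared 0 for Crhr1-ko 3 h (0 features), 0 in controls (12) and 0 at 3 h (3). The average over 12 arrays gave 4 in place of 0 for the pools. Alternatives that left the matrix gene count unchanged gave 3 to 15 features for Crhr1-ko 1 h, 690 for Crhr1-ko 3 h with no detection filter, 0 to 23 for Crhr1-wt 1 h (against 8), 1 to 68 for Crhr1-wt 3 h, 0 to 38 between the genotypes at 1 h, 30 to 36 and 7 to 84 for the difference in 1 h and 3 h response (against 6 and 20), and, with centring, 12 and 16 for 1 h and 3 h in pools (against 0).

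The replicate number is the slide. Same-numbered arrays of different groups deviated together with correlations of −0.156 to 0.473, over 0.1 in 9 of 15 pairs, so the numbers share a slide but do not pair samples. With the replicate block the count at 3 h between the genotypes was 1, against 2, and no other count of matrix genes changed, while the features called were 219 against 93 between the genotypes at 1 h, 444 against 271 in controls, 50 against 20 for the difference in 3 h response and 1216 against 808 in the F test.

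Leaving out 1 array gave 0 to 8 matrix genes for Crhr1-ko 3 h, 0 to 3 between the genotypes in controls and at 1 h, 0 to 13 at 3 h, 0 to 8 for the difference in 3 h response, 0 to 14 in the F test and 0 to 1 for 3 h against control over both genotypes in pools. The highest counts for Crhr1-ko 3 h and at 3 h came without replicate 1 of the Crhr1-ko 3 h pool. Dcn reversed for Crhr1-ko 3 h with 2 other probes (−0.43 and −0.021), between the genotypes at 3 h with centring (−0.058) and another probe (−0.55), and for the difference in 3 h response with centring (−0.0058) and 2 other probes (−0.73 and −0.024). Between the genotypes at 3 h, centring also reversed Col4a2 (−0.058) and Col4a1 (−0.12).

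Genes dim on most arrays, such as Mmp10, Sparc, Col11a2 and Col13a1, lie near background, where a difference is bounded by the dimmest detected signal.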
